A study of Saccharomyces cerevisiae with 12 samples.

Results

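The 10 histone genes of budding yeast were followed in mRNA libraries of strains that had lost a subunit of the SWI/SNF complex. The 10 genes were taken by name from the deposited table of 5935 genes, and all 10 were among the 5820 genes with enough signal to be tested. They are HTA1 (YDR225W) and HTA2 (YBL003C) for histone H2A, HTB1 (YDR224C) and HTB2 (YBL002W) for H2B, HHT1 (YBR010W) and HHT2 (YNL031C) for H3, HHF1 (YBR009C) and HHF2 (YNL030W) for H4, HTZ1 (YOL012C) for the variant H2A.Z, and HHO1 (YPL127C) for the linker histone H1. The series compared 4 strains with 3 libraries each: a snf5 deletion, a snf2 deletion, a swp82 deletion and a wild type. All were haploid MATa yeast of the laboratory strain BY4741 with his3delta_1, leu2delta_0, met15delta_0 and ura3delta_0, grown at 30 °C in independent cultures to log phase, at an OD600 of 0.75 to 1.0. Each deletion was made with kanMX4, and the labels give the deletion strains a 2FLAG tag marked with LEU2 on Snf6 and the wild type the same kind of tag on Snf2. Tag position therefore differs whenever a deletion is set against the wild type, and there the part of the tag and that of the deletion cannot be told apart. The question was what the loss of each subunit does to gene expression, read here for the genes that encode the nucleosome itself.

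Histone proteins wrap DNA into nucleosomes, and each nucleosome holds H2A, H2B, H3 and H4. In budding yeast every core histone is made from a pair of genes, and the core genes sit in divergent couples, H2A beside H2B and H3 beside H4, each couple driven from the promoter between them. Their transcription peaks in S phase. Spt10 binds upstream activating sequences in the core promoters, SBF and MBF are G1/S transcription factors, and the HIR complex with Asf1 and Rtt106 represses the couples outside S phase. HTA2-HTB2 is known as the couple that HIR does not repress. SWI/SNF uses ATP to move nucleosomes, with Snf2 as its ATPase, Snf5 as a core subunit and Swp82 as an accessory subunit, and it has been described as an activator recruited to HTA1-HTB1. Unlike most animal histone mRNAs, those of yeast carry poly(A) tails, so mRNA libraries capture them.

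The libraries held 9012746 to 12875057 reads, and values are given as scaled CPM, CPM corrected by a scaling factor per library, where 1 read is worth 0.0801 to 0.118 scaled CPM. Replicates of a strain correlated at 0.978 to 0.998 across genes (log2 values), lowest between snf5 replicates 1 and 3. The deleted genes checked the labels: SNF5 had 2 reads in all snf5 deletion libraries together, SNF2 had 22 reads in those of the snf2 deletion and SWP82 had 0 in those of the swp82 deletion. In the wild type the same genes averaged 99.4, 97.6 and 59.8 scaled CPM. LEU2 went against the labels: it had 0 reads in the snf2 and swp82 deletions, 74.7 ± 16.1 scaled CPM in the snf5 deletion and 56.2 ± 0.869 in the wild type (SD, n = 3). Tag label and LEU2 status were matched only between the snf2 and swp82 deletions.

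The core promoters are printed below because both genes of a couple share the promoter between them. Whether the promoters bear on the fold changes was not tested. Each stretch is 220 bases of the plus strand of assembly R64, written 5′ to 3′, and capitals mark motif matches on either strand. The stretches are chrIV:914949-915168 between HTB1 and HTA1, chrII:236011-236230 between HTA2 and HTB2, chrII:255841-256060 between HHF1 and HHT1, and chrXIV:576299-576518 between HHT2 and HHF2.
HTA1-HTB1 promoter: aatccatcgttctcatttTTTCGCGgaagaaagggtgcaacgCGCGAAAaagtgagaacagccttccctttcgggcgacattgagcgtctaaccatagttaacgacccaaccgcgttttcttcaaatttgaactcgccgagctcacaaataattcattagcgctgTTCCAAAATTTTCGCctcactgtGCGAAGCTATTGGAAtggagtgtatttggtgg
HTA2-HTB2 promoter: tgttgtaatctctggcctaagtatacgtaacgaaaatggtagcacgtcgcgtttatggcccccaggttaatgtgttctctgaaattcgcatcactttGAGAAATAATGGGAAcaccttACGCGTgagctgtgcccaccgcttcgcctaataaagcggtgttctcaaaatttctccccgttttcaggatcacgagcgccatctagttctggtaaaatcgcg
HHT1-HHF1 promoter: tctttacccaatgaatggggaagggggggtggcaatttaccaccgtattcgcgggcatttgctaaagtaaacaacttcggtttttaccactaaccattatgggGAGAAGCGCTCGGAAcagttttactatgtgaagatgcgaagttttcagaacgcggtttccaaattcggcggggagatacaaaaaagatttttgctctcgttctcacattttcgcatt
HHT2-HHF2 promoter: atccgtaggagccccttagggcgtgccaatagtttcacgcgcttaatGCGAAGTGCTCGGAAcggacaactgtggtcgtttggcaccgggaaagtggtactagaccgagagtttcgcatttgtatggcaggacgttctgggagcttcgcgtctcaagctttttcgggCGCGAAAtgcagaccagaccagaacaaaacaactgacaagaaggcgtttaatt

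The motifs searched were the histone upstream activating sequence TTCCNNNNNNTTCNC of Spt10, the SBF elements CGCGAAA and CACGAAA, and the MBF element ACGCGT. All 8 core genes held the histone motif within 500 bases of the start codon, against 171 of 5625 genes with such a window, or 3.04%. The motif was described from these promoters, so its presence is no independent result. HTA1-HTB1 held 2 copies and the other 3 couples held 1 each. CGCGAAA stood before 3 of the 8 core genes, against 6.01% of these genes, and was found in HTA1-HTB1 and HHT2-HHF2. ACGCGT stood only in HTA2-HTB2 among the core couples, against 5.56% of these genes, and CACGAAA in none of them, against 7.24%. Before HTZ1 the only match was CACGAAA and before HHO1 the only match was CGCGAAA. No motif overlapped another in the couples.

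**Figure D1:**
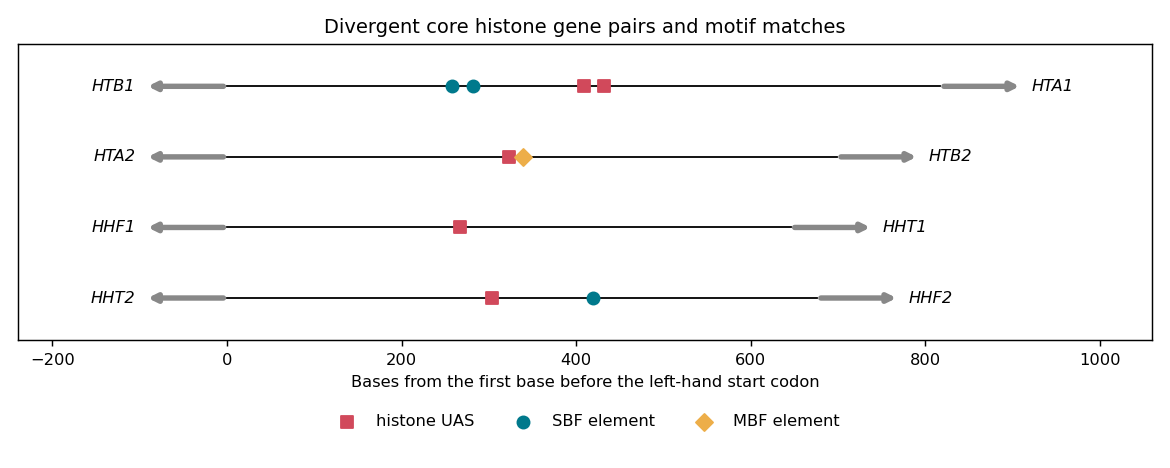
The 4 divergent core histone couples drawn to scale, with the distance in bases from the left-hand start codon on the x axis. Squares mark the histone upstream activating sequence, circles CGCGAAA and the diamond ACGCGT; the couples are 646 to 817 bases apart, and HTA1-HTB1 holds the most matches.

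The genes lie at IV 915530-915928 (HTA1, plus strand), IV 914317-914712 (HTB1, minus), II 235394-235792 (HTA2, minus), II 236492-236887 (HTB2, plus), II 256331-256741 (HHT1, plus), II 255373-255684 (HHF1, minus), XIV 575640-576050 (HHT2, minus), XIV 576727-577038 (HHF2, plus), XV 303579-303983 (HTZ1, minus) and XVI 308828-309604 (HHO1, minus) in R64. Each is 1 coding exon that no other annotated gene overlaps. The copies of a type are alike in sequence: coding identity is 97.4% for H4, with 8 of 312 bases different, 93.7% for H2A, 93.2% for H3 and 87.9% for H2B. The longest stretch shared without a difference is 80 bases in H4, 74 in H3, 65 in H2A and 35 in H2B. How the authors counted reads that match both copies is not given in the sources used here, so the split between copies is uncertain, most so for H4, and the total of a type is given beside it.

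Histone mRNA made up 0.704 to 0.748% of all reads in the snf5 deletion, 0.964 to 0.999% in the snf2 deletion, 0.602 to 0.662% in the swp82 deletion and 0.640 to 0.661% in the wild type. These shares are of unscaled reads, without the scaling factor per library. In scaled CPM the histone total was 7156, 6658 and 7168 in the snf5 deletion, against 6701, 6607 and 6674 in the wild type. By that measure the snf5 deletion overlapped the wild type. The total was 9008, 9286 and 9192 scaled CPM in the snf2 deletion and 6380, 6804 and 7206 in the swp82 deletion. The snf2 deletion libraries stood clear of all others by either measure. Per kilobase of coding sequence, wild type levels ran from HHT2 at 3774 ± 33.6 scaled CPM per kb through HHF1 (2506), HHF2 (2408), HTB2 (2119.6), HHT1 (2053), HTB1 (1676), HTA1 (1297) and HTA2 (905) to HHO1 (315) and HTZ1 (264 ± 10.6; SD, n = 3). Among neighbours in that order only HTB2 and HHT1 had overlapping libraries. HHT2 led in all 4 strains, and HHO1 and HTZ1 came last in all 4. HTA1 stood above HTA2 in the swp82 deletion and the wild type without overlap, while in the snf5 deletion (1034 ± 131 against 1053 ± 66.6 scaled CPM per kb for HTA2) and the snf2 deletion (1237 ± 15.9 against 1197 ± 59.5 for HTA2) the libraries of the pair overlapped.

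**Figure D2:**
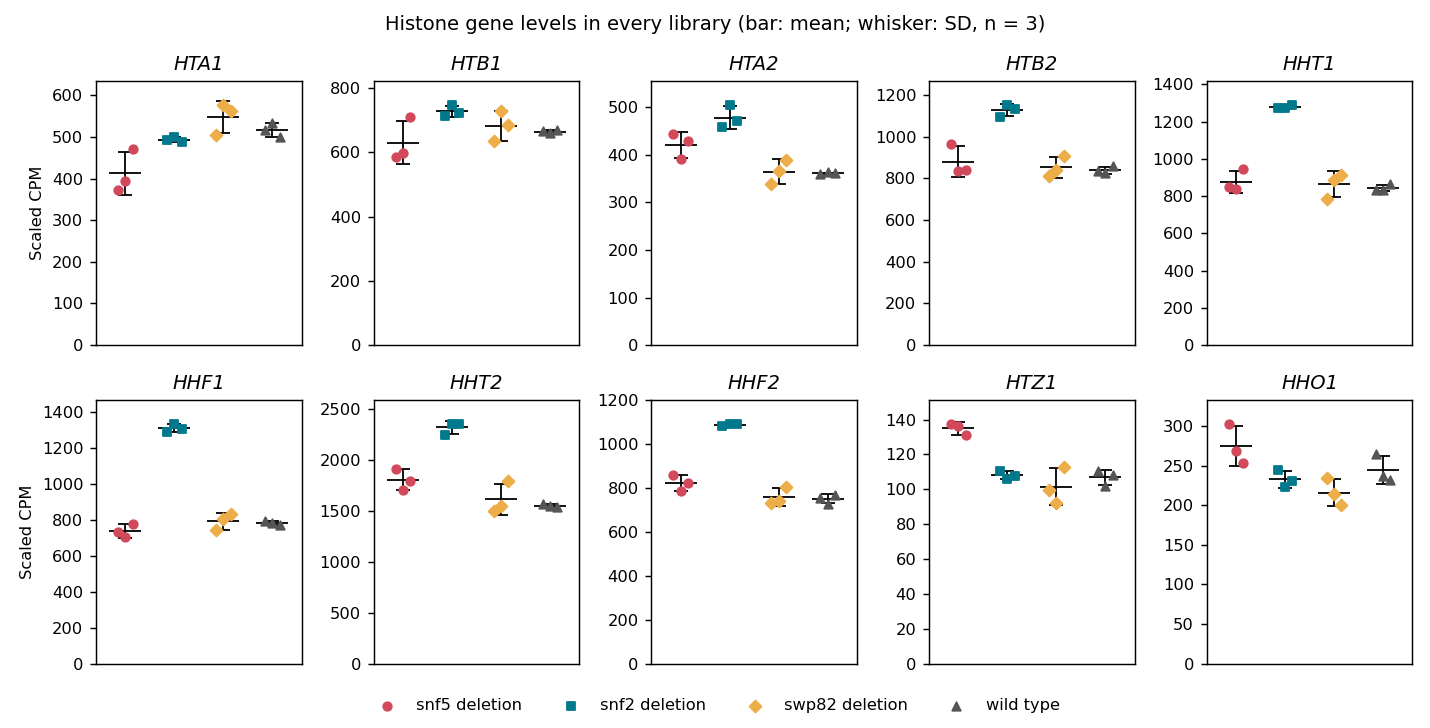
Level of each histone gene in scaled CPM (y axis, from 0) in each of the 12 libraries; points are libraries, bars are means and whiskers SDs (n = 3). The snf2 deletion stands above the other strains for HHT1, HHF1, HHT2, HHF2, HTB2 and HTA2, the snf5 deletion is lowest for HTA1 and highest for HTZ1.

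The snf2 deletion had the widest change of histone mRNA. Of the 10 genes, 6 rose and 0 fell against the wild type, where 27.7% of all tested genes were called and 13.6% were called higher. The 6 were the H3 and H4 genes of both couples together with HTA2 and HTB2, with means 32.3% (HTA2) to 67.7% (HHF1) above the wild type. In the snf5 deletion 3 genes (HTZ1, HTA2 and HHT2) rose and 1 (HTA1) fell, where 29.3% of all genes were called, 14.8% higher and 14.5% lower. The count of 4 in 10 was thus near the background. In the swp82 deletion 0 of 10 were called, where 3.49% of all genes were, 1.41% higher and 2.08% lower. The median log2 fold change of the 10 was 0.10, 0.41 and 0.02 in the snf5, snf2 and swp82 deletions, each against the wild type, and that of all tested genes was -0.01, 0.00 and 0.00. Calls are from limma on log2(value + 1) with Benjamini-Hochberg adjustment over all tested genes, at an adjusted p under 0.05. The cultures were bulk, so a different share of cells in S phase and a different amount of histone mRNA per cell cannot be told apart.

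HHF1, an H4 gene, had the largest change of the 10. Its level was 1291, 1336 and 1306 scaled CPM in the snf2 deletion, against 794, 779.7 and 772 in the wild type. Every snf2 deletion library was far above every wild type library, and HHF1 rose by 0.74 ± 0.06 in log2 (SE; limma, adjusted p = 2.65e-06). The same gene read 729.8, 703 and 777 scaled CPM in the snf5 deletion, overlapping the wild type (log2 fold change -0.09 ± 0.06, limma adjusted p = 0.278). HHT1, the H3 gene across the shared promoter, had 1275, 1274 and 1289 scaled CPM in the snf2 deletion, against 834, 833 and 864 in the wild type. It rose by 0.60 ± 0.07 in log2 (limma, adjusted p = 6.1e-05), with no overlap. HHT1 read 849, 839 and 945 scaled CPM in the snf5 deletion and was not called (0.05 ± 0.07). As a couple, HHT1 and HHF1 together were 59.3% higher in the snf2 deletion than in the wild type without overlap, and differed by -0.694% in the snf5 deletion with overlapping libraries.

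HHT2, the H3 gene with the highest level of all histone genes, had 2247, 2351 and 2357 scaled CPM in the snf2 deletion, against 1567, 1546 and 1541 in the wild type. It rose by 0.58 ± 0.07 in log2 (limma, adjusted p = 0.000115). It had 1913, 1707 and 1789.7 scaled CPM in the snf5 deletion, also above every wild type library, and rose by 0.22 ± 0.07 (limma, adjusted p = 0.0365). That call was lost without snf5 replicate 1 (adjusted p = 0.121), without any single wild type replicate (0.0743 to 0.0961) and in a fit of the 6 libraries alone (0.0516). Its H4 partner HHF2 had 1081, 1093 and 1090.3 scaled CPM in the snf2 deletion, against 755, 729 and 769 in the wild type, and rose by 0.53 ± 0.05 (limma, adjusted p = 3e-05). HHF2 read 860.3, 785 and 824 scaled CPM in the snf5 deletion, a log2 difference of 0.13 ± 0.05 that limma did not call (adjusted p = 0.0885). DESeq2 called it (0.0436), as did limma under total-count scaling (0.22, adjusted p = 0.0068). The couple's total was 14.1% higher in the snf5 deletion and 48.0% higher in the snf2 deletion than in the wild type, without overlap.

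Both genes of the HTA2-HTB2 couple rose in the snf2 deletion, and 1 of them in the snf5 deletion. HTB2, an H2B gene, had 1097, 1152 and 1132 scaled CPM in the snf2 deletion, against 834, 826 and 859 in the wild type, and rose by 0.42 ± 0.06 in log2 (limma, adjusted p = 0.00066). Its partner HTA2 had 458, 504 and 471 scaled CPM in the snf2 deletion, against 359.9, 362 and 361 in the wild type, and rose by 0.40 ± 0.07 (limma, adjusted p = 0.000983). The total of this couple was 33.7% higher in the snf2 deletion than in the wild type. It is the couple known to escape HIR repression, and whether HIR had a part in any of the changes was not tested. In the snf5 deletion HTA2 read 442, 391 and 428 scaled CPM and rose by 0.22 ± 0.07 (limma, adjusted p = 0.0283), while HTB2 at 965, 836 and 840.2 overlapped the wild type (0.07 ± 0.06). The HTA2 call in the snf5 deletion was lost without snf5 replicate 1 (adjusted p = 0.085) or 3 (0.0556), without any single wild type replicate (0.0729 to 0.0751) and in the fit of 6 libraries (0.0509).

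HTA1 was the histone gene that fell. It had 372, 394 and 472 scaled CPM in the snf5 deletion, against 518, 534 and 501 in the wild type. All snf5 libraries were below all wild type libraries, though replicate 3 came closest, and HTA1 fell by 0.33 ± 0.08 in log2 (limma, adjusted p = 0.0114). Without each replicate in turn the adjusted p stayed between 0.000623 and 0.0469, and in the fit of 6 libraries it was 0.0517. In the snf2 deletion HTA1 had 492, 500.3 and 488 scaled CPM, each below the wild type, and was not called (-0.07 ± 0.08, turning to 0.07 under total-count scaling). Its partner HTB1 had 584, 598 and 709 scaled CPM in the snf5 deletion, spanning the 665, 658 and 668 of the wild type (-0.08 ± 0.07, limma adjusted p = 0.468; 0.01 under total-count scaling). In the snf2 deletion HTB1 had 712, 747 and 721 scaled CPM, each above the wild type, but limma did not call the difference (0.13 ± 0.07, adjusted p = 0.225; 0.0291 in the fit of 6 libraries and 0.00553 under total-count scaling, which lifts the median of all genes by 0.13 here). HTA1 with HTB1 was thus the only couple of which no member was called higher in the snf2 deletion by the main limma fit. The couple's total was 3.31% higher in the snf2 deletion than in the wild type, without overlap.

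**Figure D3:**
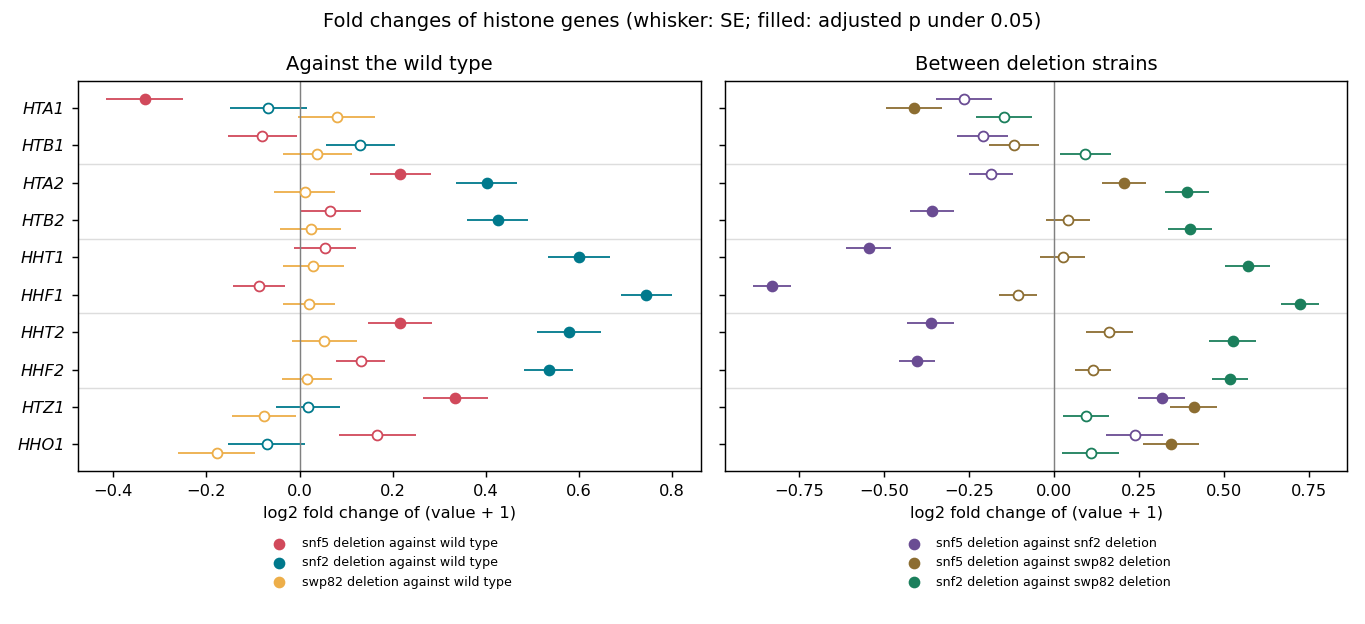
Log2 fold change of each histone gene on the log2(value + 1) scale (x axis), against the wild type on the left and between deletion strains on the right; whiskers are SEs and filled points have a limma adjusted p under 0.05. HHF1 is the farthest point in the snf2 deletion at 0.74, and HTA1 the only filled point left of 0 among comparisons with the wild type.

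HTZ1 encodes H2A.Z, which replaces H2A beside promoters, and it has a promoter of its own. It had 138, 136 and 131 scaled CPM in the snf5 deletion, against 110.4, 102 and 108 in the wild type. The snf5 libraries lay above all others of the series, and HTZ1 rose by 0.33 ± 0.07 in log2 (limma, adjusted p = 0.00413; at most 0.0217 without any single replicate). In the snf2 deletion it read 110.4, 106 and 108 scaled CPM, overlapping the wild type (0.02 ± 0.07, limma adjusted p = 0.868). HHO1, the linker histone gene, had 303, 268 and 253 scaled CPM in the snf5 deletion, 245, 223 and 230.1 in the snf2 deletion and 264, 237 and 232 in the wild type. It was called in neither (0.17 ± 0.08 and -0.07 ± 0.08), and its sign in the snf2 deletion turned under total-count scaling (0.07).

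The swp82 deletion was next set against the wild type. Its levels ranged over 503 to 576 scaled CPM for HTA1 and over 1502 to 1789.8 for HHT2, the widest span in scaled CPM. Libraries of all 10 genes overlapped those of the wild type, and the share of all genes with such an overlap was not taken. The fold changes lay between -0.18 and 0.08 in log2, with SEs of 0.05 to 0.08. limma called 0 of 10, where 3.49% of all genes were called, so the count is near the background. edgeR and DESeq2 on recovered reads also called 0 of 10. At an unadjusted p under 0.05 stood 0 of 10, a count without a background. The lowest adjusted p was that of HHO1, with 234, 214 and 199.9 scaled CPM in the swp82 deletion (-0.18 ± 0.08, limma adjusted p = 0.214). With the replicate number as a block, which pairs these libraries, HHO1 was called lower (adjusted p = 0.0364) and the calls over all genes numbered 783 in place of 203. Under total-count scaling all 8 core genes but HTA1 turned to values below 0, from -0.02 to -0.07, none of them called.

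By the labels, comparisons between the deletion strains do not carry the difference in tag position. Against the swp82 deletion, with which it also shared the absence of LEU2 reads, the snf2 deletion had the same 6 genes higher as against the wild type, where 43.5% of all genes were called and 21.7% higher. HHF1 was higher by 0.73 ± 0.06 in log2, HHT1 by 0.57 ± 0.07, HHT2 by 0.53 ± 0.07, HHF2 by 0.52 ± 0.05, HTB2 by 0.40 ± 0.06 and HTA2 by 0.39 ± 0.07 (limma, adjusted p at most 0.000792). Both comparisons use the same snf2 deletion libraries. Total-count scaling, which lifts the median of all genes by 0.21 here, called 9 of 10, adding HTB1 (0.31, adjusted p = 0.00155), HTZ1 (0.31, 0.00483) and HHO1 (0.33, 0.0114) as higher. Upper-quartile scaling added HTB1 (0.0395).

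The snf5 deletion differed from the snf2 deletion in 6 of the 10 genes, where 12.5% of all genes were called: 5 were lower (6.68% of all genes) and 1 was higher (5.79%). HHF1 was lower by 0.83 ± 0.06 in log2, with 729.8, 703 and 777 scaled CPM in the snf5 deletion, against 1291, 1336 and 1306 in the snf2 deletion (limma, adjusted p = 1.5e-05). HHT1, HHF2, HHT2 and HTB2 were lower by 0.55, 0.40, 0.36 and 0.36 in log2, with adjusted p of 0.000831 to 0.00829, and the last was not called in the fit of 6 libraries (0.0503). HTZ1 was higher in the snf5 deletion by 0.32 ± 0.07 (limma, adjusted p = 0.0144), a call lost without snf2 replicate 2 (0.0581) or 3 (0.0509). HTA1, HTA2 and HTB1 read lower in the snf5 deletion without passing the threshold (-0.27, -0.19 and -0.21, limma adjusted p = 0.061, 0.0895 and 0.0913). Without snf5 replicate 3, the first and last of these were called (0.00835 and 0.0134). HTA1 was also called lower by DESeq2 (0.0375), under total-count scaling (0.0156) and under upper-quartile scaling (0.0222), HTB1 under both scalings (0.0198 and 0.0325), and HTA2 under total-count scaling (0.0266). HHO1 read higher in the snf5 deletion without passing the threshold (0.24 ± 0.08, limma adjusted p = 0.0883). With the replicate number as a block, limma called HHO1 higher (adjusted p = 0.00829) and HTA1 lower (0.0359), though pairing of these libraries is unsettled.

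Against the swp82 deletion, the snf5 deletion had 4 of 10 genes called, 1 lower and 3 higher, where 41.9% of all genes were called, 20.4% higher and 21.5% lower. HTA1 was lower by 0.41 ± 0.08 in log2 (limma, adjusted p = 0.00275), with 372 to 472 scaled CPM in the snf5 deletion and 503 to 576 in the swp82 deletion. HTZ1 was higher by 0.41 ± 0.07 (adjusted p = 0.000954), HHO1 by 0.34 ± 0.08 (0.00744) and HTA2 by 0.21 ± 0.07 (0.027). The last call was lost without snf5 replicate 1 (0.089) or swp82 replicate 1 (0.0784) or 2 (0.0653) and in the fit of 6 libraries (0.12). The calls did not change with the replicate number as a block, which pairs these libraries. Under total-count scaling, which lifts the median of all genes by 0.16 in this comparison, 8 of 10 were called: the same 4 with HTB2, HHT1, HHT2 and HHF2 higher (0.21, 0.19, 0.33 and 0.28). Upper-quartile scaling also called HHT2 and HHF2 higher (limma, adjusted p = 0.021 and 0.0227), as did the fit without swp82 replicate 3 (0.0113 and 0.0405). Without snf5 replicate 3, HTB1 (0.0147) and HHF1 (0.0497) were called lower, and HHF1 also without swp82 replicate 1 (0.0388).

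The totals of both copies do not depend on how shared reads were split between copies, although they would on whether such reads were dropped. In the snf2 deletion, H4 mRNA totalled 2399 ± 28.5 scaled CPM, against 1533 ± 21.5 in the wild type, 56.5% higher. H3 totalled 3598 ± 67.0 in the snf2 deletion and 2395 ± 13.9 in the wild type, 50.2% higher. H2B totalled 1854 ± 44.6 in the snf2 deletion and 1503 ± 21.8 in the wild type, 23.3% higher. H2A totalled 971 ± 29.0 in the snf2 deletion and 878 ± 17.3 in the wild type, 10.6% higher (SD, n = 3 each). The percent differences of H3 and H4 were thus the larger ones, and no library of the snf2 deletion overlapped the wild type for any of the 4 types. HTA1 and HTB1, which limma did not call there, did not overlap either. The share of all genes without such overlap was not taken, here or for the genes and couples above. In the snf5 deletion H3 totalled 2681 ± 117 scaled CPM, 12% above the wild type without overlap, while H2A (833 ± 59.4), H2B (1511 ± 66.4) and H4 (1559.8 ± 61.9) overlapped it. The exact two-sided permutation test of 3 libraries against 3 cannot give less than 0.1, which was reached by 11 of 24 tests of totals and shares, or 0.218 after adjustment over the 24.

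Within a library the ratio of H3 plus H4 to H2A plus H2B mRNA needs no scaling between libraries. It was 1.84, 1.82 and 1.77 in the snf5 deletion, 2.14, 2.09 and 2.15 in the snf2 deletion, 1.64, 1.59 and 1.71 in the swp82 deletion and 1.66, 1.63 and 1.65 in the wild type. The snf2 and snf5 deletion libraries lay above all those of the other strains, the snf2 ones highest. HTA1 gave 49.4 ± 3.44% of H2A mRNA in the snf5 deletion, 50.8 ± 1.00% in the snf2 deletion and 59.1 to 61.2% in the swp82 deletion, with 58.9 ± 0.728% in wild type libraries. The share was lower in both the snf5 and the snf2 deletion without overlap, though HTA1 itself fell only in the snf5 deletion by the test against the wild type. HHF1 gave 47.2 ± 1.33% of H4 mRNA in the snf5 deletion and 54.6 ± 0.304% in the snf2 deletion, against 51.0 ± 0.835% in the wild type, so the H4 shares moved in opposite directions. HTB1 gave 39.2 ± 0.256% of H2B mRNA in the snf2 deletion, against 44.2 ± 0.345% in the wild type, and HHT1 gave 32.7 ± 1.92% of H3 mRNA in the snf5 deletion, against 35.2 ± 0.619%. Each of these differences reached the smallest exact permutation p of 0.1.

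**Figure D4:**
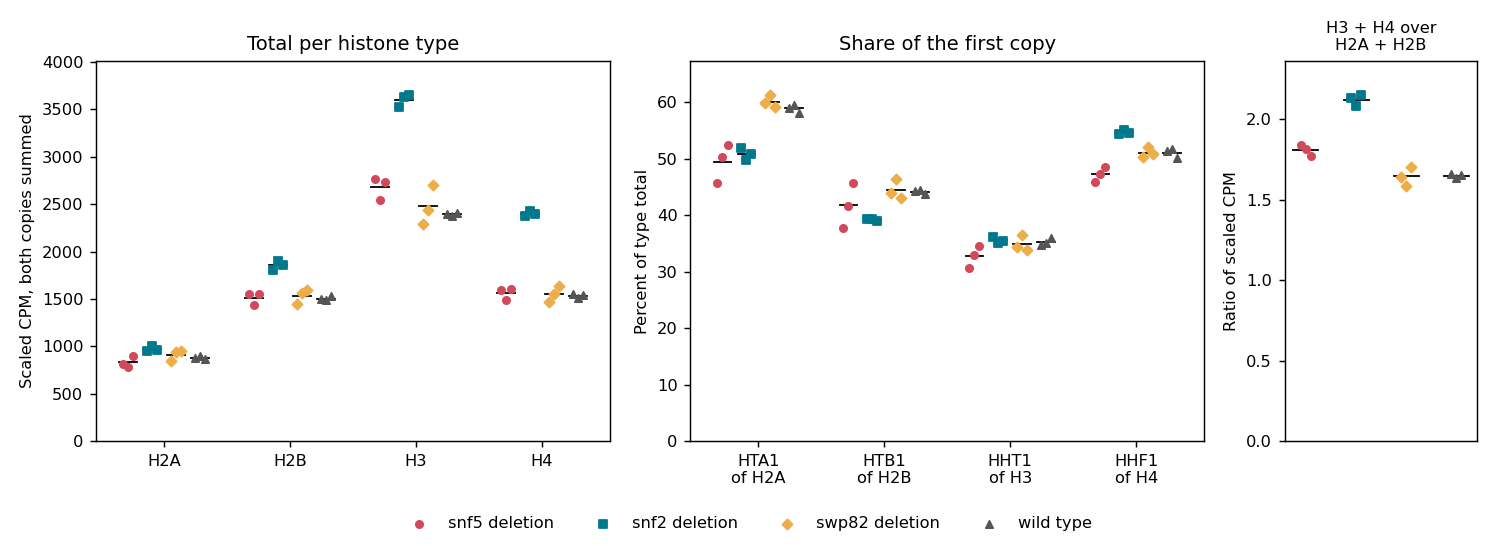
Left: mRNA of each histone type with both copies summed, in scaled CPM. Middle: percent of the type total from the named copy. Right: ratio of H3 plus H4 to H2A plus H2B mRNA in each library. Points are libraries, bars means; the ratio is 2.09 to 2.15 in the snf2 deletion and 1.63 to 1.66 in the wild type.

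Regulators of histone genes were read next. Of 7 genes of the HIR complex and histone gene repression, 2 were called higher and 0 lower in the snf5 and in the snf2 deletion against the wild type, where 14.8% and 13.6% of all genes were called higher and 29.3% and 27.7% in either direction. The count is thus near the background. In the swp82 deletion limma, edgeR and DESeq2 called 0 (1 of 7 at an unadjusted p under 0.05), where limma called 3.49% of all genes. Under total-count scaling 4 were higher in the snf2 deletion. ASF1, an H3-H4 chaperone needed for HIR repression, averaged 195 ± 9.90 scaled CPM in the snf5 deletion and 201 ± 1.12 in the snf2 deletion, against 158 ± 7.32 in the wild type. It rose by 0.30 ± 0.08 and 0.35 ± 0.08 in log2 (limma, adjusted p = 0.0163 and 0.00809), the first lost without wild type replicate 2 (0.0667). RTT106, another H3-H4 chaperone of this pathway, rose by 0.18 ± 0.05 in the snf5 deletion (adjusted p = 0.0109) and by 0.15 ± 0.05 in the snf2 deletion (0.0321, lost without each replicate in turn, at up to 0.0939). HIR1, HIR2, HIR3 and HPC2, the subunits of HIR, were called in none of the 3 deletions against the wild type. Against the swp82 deletion, limma called HPC2 higher in both the snf5 deletion (0.19 ± 0.06, adjusted p = 0.0259) and the snf2 deletion (0.18 ± 0.06, 0.0306), and HIR1 lower in the snf5 deletion (-0.25 ± 0.09, 0.0397). Of 7 activators (SPT10, SPT21, SWI4, SWI6, MBP1, RTT109 and GCN5), limma, edgeR and DESeq2 called 0 in each deletion against the wild type. Over all genes limma called 29.3%, 27.7% and 3.49% in the snf5, snf2 and swp82 deletions, so the 0 of 7 carries least weight in the last. At an unadjusted p under 0.05 stood 0, 0 and 1 of the 7. SPT10, the activator that binds the printed motif, averaged 42.1 ± 2.63 scaled CPM in the snf5 deletion, 44.6 ± 0.839 in the snf2 deletion and 39.7 ± 1.20 in the swp82 deletion, with 46.3 ± 2.93 in wild type libraries. Its difference in the swp82 deletion (-0.21 ± 0.06) was not called by limma (adjusted p = 0.0878) and was called with the replicate block (0.0459). Under total-count scaling 1 activator was called lower in the swp82 deletion and 1 higher in the snf2 deletion, each against the wild type.

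Of 25 genes for histone chaperones, assembly and import, some of them also in the HIR list, 7 rose and 1 fell in the snf5 deletion, 5 rose and 2 fell in the snf2 deletion, and limma, edgeR and DESeq2 called 0 in the swp82 deletion (3 at an unadjusted p under 0.05). The calls in either direction in the snf5 and snf2 deletions, 8 and 7 of 25, are near the 29.3% and 27.7% of all genes. By direction, the 7 higher and 1 lower in the snf5 deletion stand beside 14.8% and 14.5% of all genes. The 5 and 2 in the snf2 deletion stand beside 13.6% and 14.1%. The list median was 0.11 and 0.04 in log2, against -0.01 and 0.00 over all genes. In the swp82 deletion limma called 3.49% of all genes. SPT6, a transcription elongation factor and H3-H4 chaperone, averaged 431 ± 16.5 scaled CPM in the snf5 deletion and 410.1 ± 17.5 in the snf2 deletion, against 209.7 ± 9.48 in the wild type. It rose by 1.04 ± 0.06 and 0.96 ± 0.06 in log2, a larger fold change than that of any histone gene. CHZ1, a chaperone of H2A.Z with H2B, averaged 168 ± 2.77 scaled CPM in the snf5 deletion and 127 ± 7.86 in the wild type and rose by 0.40 ± 0.06 (limma, adjusted p = 0.000518). MSI1, a subunit of the chromatin assembly factor CAF-1, fell in both the snf5 deletion (-0.36 ± 0.07) and the snf2 deletion (-0.31 ± 0.07). In both deletions POB3 of the FACT complex rose (0.23 ± 0.05 and 0.21 ± 0.05). Without single replicates the counts were 4 to 7 higher and 1 to 3 lower in the snf5 deletion and 3 higher and 2 lower in the snf2 deletion. Under total-count scaling 12 were higher and 1 lower in the snf5 deletion, and 11 higher and 0 lower in the snf2 deletion.

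Of 10 genes for histone mRNA and protein turnover, 1 was called in the snf5 and in the snf2 deletion, UBC5, a ubiquitin-conjugating enzyme, where 29.3% and 27.7% of all genes were called. Under total-count scaling 2 and 3 of the 10 were called, all higher. UBC5 averaged 54.0 ± 5.15 scaled CPM in the snf2 deletion and 32.5 ± 2.89 in the wild type and rose by 0.71 ± 0.10 in log2 (limma, adjusted p = 0.000284). In the snf5 deletion it rose by 0.30 ± 0.10 (0.0353), a call lost without 4 of the 6 replicates in turn. In the swp82 deletion limma, edgeR and DESeq2 called 0 of 10, with 3 at an unadjusted p under 0.05, where limma called 3.49% of all genes.

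Because histone genes follow the cell cycle, transcripts of other phases were set beside them. Of 26 G1/S and DNA replication transcripts, 3 rose and 4 fell in the snf5 deletion and 2 rose and 5 fell in the snf2 deletion, with medians of 0.01 and 0.03 in log2. That is 7 of 26 in each, near the 29.3% and 27.7% of all genes. PRI2, a primase subunit, rose in both (0.36 ± 0.06 and 0.45 ± 0.06), the G1 cyclin genes CLN1 and CLN2 fell in both (CLN1 at -0.51 and -0.34, CLN2 at -0.47 and -0.53), and so did SVS1, a cell wall gene of late G1 (-0.93 and -0.69). The summed level of all 26 was 3680 to 3894 scaled CPM in the snf5 deletion and 3599.6 to 3871 in the snf2 deletion, against 3897 to 4202 in the wild type. The list thus had members called in both directions. Without single replicates 1 to 4 rose and 4 fell in the snf5 deletion and 1 rose and 4 to 5 fell in the snf2 deletion, where under total-count scaling 11 rose and 3 fell. Also in the snf2 deletion, 7 rose and 5 fell with the replicate block, and 9 rose and 5 fell in the fit of 6 libraries.

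Of 13 M/G1 transcripts, 6 fell and 2 rose in the snf5 deletion and 9 fell and 1 rose in the snf2 deletion, where 14.5% and 14.1% of all genes were called lower. The medians were -0.44 and -0.66 in log2, against -0.01 and 0.00 over all genes. Without single replicates the median was -0.56 to -0.26 in the snf5 deletion, the last without snf5 replicate 1, with 6 to 8 lower and 0 to 2 higher. In the snf2 deletion it was -0.69 to -0.58, with 6 to 9 lower and 1 higher. RME1, a repressor of meiosis, averaged 48.6 scaled CPM in the snf5 deletion and 30.2 in the snf2 deletion, against 106 in the wild type (log2 fold changes -1.12 ± 0.11 and -1.78 ± 0.11). ASH1, a daughter-cell repressor of HO, averaged 132 and 109 scaled CPM in these deletions, against 257 in the wild type (-0.95 ± 0.09 and -1.23 ± 0.09), and EGT2, a cell wall gene, had log2 fold changes of -0.61 ± 0.10 and -0.99 ± 0.10. The gene that rose in the snf2 deletion was CDC6, which loads the replicative helicase (0.51 ± 0.09), named after its values were seen. In the snf5 deletion its call (0.25 ± 0.09, limma adjusted p = 0.0467) was lost without 4 of the 6 replicates in turn. The summed level was 5765 to 7470.0 scaled CPM in the snf5 deletion and 5231 to 5897 in the snf2 deletion, against 7638 to 8765 in the wild type. Of 14 G2/M transcripts, 2 rose and 1 fell in the snf5 deletion and 1 rose and 3 fell in the snf2 deletion, among them the mitotic cyclin gene CLB1, which fell in both (-1.17 ± 0.14 and -1.38 ± 0.14). Without single replicates 0 to 2 of these rose and 1 fell in the snf5 deletion, and 0 rose and 1 to 3 fell in the snf2 deletion. The calls, 3 and 4 of 14, stand beside 29.3% and 27.7% of all genes. Under total-count scaling 4 were higher and 1 lower in the snf5 deletion and 3 higher and 1 lower in the snf2 deletion, so the balance in the snf2 deletion turned. In the swp82 deletion limma, edgeR and DESeq2 called 0 genes of these 3 lists, where limma called 3.49% of all genes. At an unadjusted p under 0.05 stood 0 of 26, 4 of 14 and 1 of 13. The share of all genes at that level was not taken, here or for the unadjusted counts above, so these counts have no background. The replicate block added 1 lower G1/S and 1 lower G2/M gene. CLB1 in the swp82 deletion (-0.34 ± 0.14) was called without swp82 replicate 3 (limma adjusted p = 0.0137). No gene of the 3 lists was at 0 in any strain. Whether a different spread of cells over the cycle had a part in the histone levels was not tested.

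**Figure D5:**
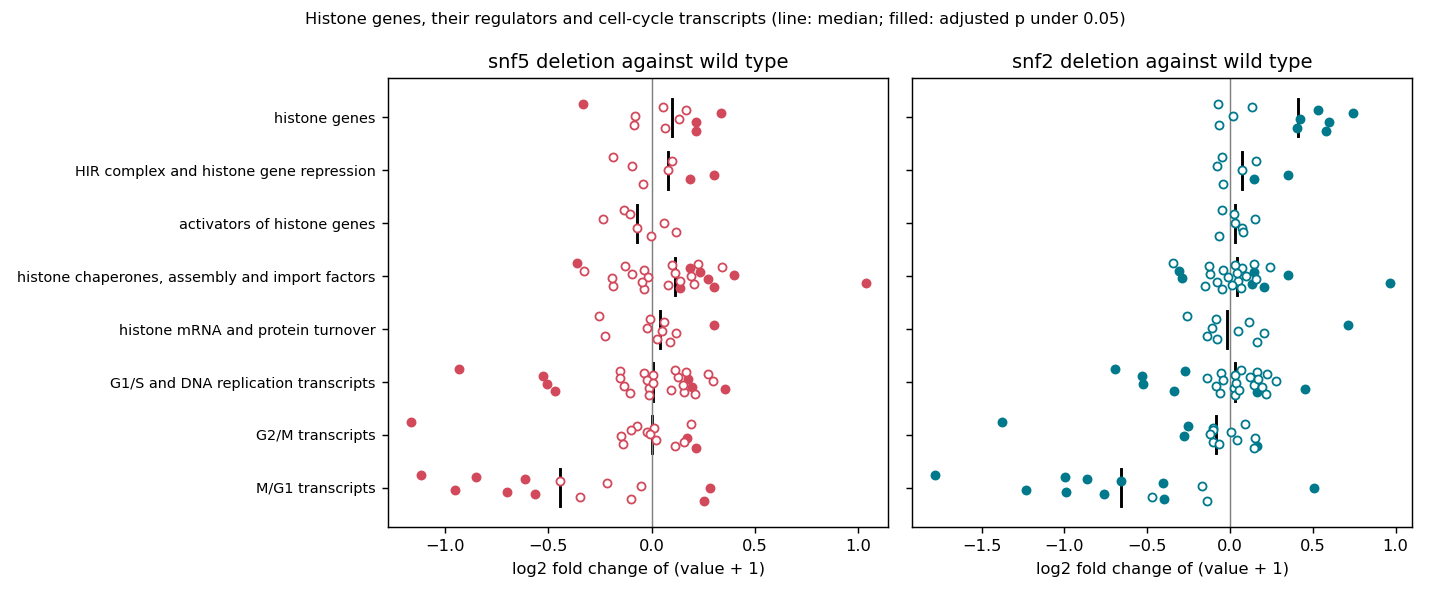
Log2 fold changes against the wild type (x axis) of the histone genes and of 7 gene lists in the snf5 deletion (left) and the snf2 deletion (right). Each point is a gene, black lines are medians, filled points have a limma adjusted p under 0.05; the histone median is 0.41 in the snf2 deletion and the M/G1 median is -0.66.

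The genes whose pattern over the 12 libraries was most like the mean log2 level of the 8 core genes were ASK10 (Pearson r = 0.967), SER3 (0.955), SPT8 (0.93), SPS4 (0.912), RTA1 (0.898), FMP48 (0.892), FKS1 (0.887) and YPR145C-A (0.885), of 5752 candidates. All libraries share the scaling, and the 3 snf2 deletion libraries stood apart from the other 9, so r mostly describes that split. SPT8, a subunit of the SAGA coactivator, averaged 158 scaled CPM in the snf2 deletion and 119.6 in the wild type, a size of change like that of HTA2. SER3, a serine synthesis gene known to be repressed by transcription of SRG1 across its promoter, averaged 1232 scaled CPM in the snf2 deletion, 139 in the snf5 deletion and 79.2 in the wild type, a far larger difference than any histone gene showed. FKS1, a subunit of glucan synthase, averaged 1169.9 scaled CPM in the snf2 deletion and 935 in the wild type.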

How the data were processed

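The deposited table holds normalised signal for 5935 genes in 12 poly(A) libraries made with a stranded kit from hot acid phenol RNA, per the labels' protocols; TopHat2 2.0.10, Bowtie2 2.1.0, edgeR 3.8.6 and build sacCer3 are named in the submitters' processing notes. Of the counting tool, strand setting, annotation and treatment of multiply matching reads, the sources used here give none. The authors' deposited signal equals CPM divided by a TMM factor: all values are whole reads within 0.05 read, and these recovered reads gave each library's depth. A deposited list of 506 genes filtered by the authors holds 0 of the 10 histone genes and was not used further.

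Since the unit is a signal and not raw counts, the test planned for a signal was used, and the count test planned for raw counts became an alternative. Genes that did not reach a value of 1 in 3 or more libraries were left out. The main test was limma 3.58.1 (R 4.3.3, trended variance) on log2(value + 1) over all 12 libraries with strain as the only factor. Fold changes on that scale understate those of low genes. P-values were adjusted by Benjamini-Hochberg over the 5820 genes tested, at a threshold of 0.05. edgeR 4.0.16 (quasi-likelihood) and DESeq2 1.42.0 on recovered reads, other pseudocounts, filters and scalings, a replicate block, the 6 libraries of a comparison alone and each replicate left out were alternatives. The fits were tested on simulated data. Type totals and copy shares were compared by exact two-sided permutation tests in Python 3.11.15 with scipy 1.17.1.

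Replicate numbers come from the labels, which call the samples independent biological triplicates. They were taken to pair libraries where deviations of all 3 same-numbered libraries from their strain means correlated above 0.1. That held for swp82 against wild type (0.255 to 0.599) and snf5 against swp82 (0.116 to 0.660) and for no other comparison. The outcome depends on this cut-off. In snf5 against wild type the correlations were 0.617, 0.052 and 0.423. In snf2 against wild type and against swp82, all 3 libraries correlated best with their own number. Pairing in the comparisons that missed the cut-off is thus unsettled.

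Gene names and positions come from the R64 annotation, the same assembly as sacCer3, to which 5685 of the 5935 identifiers matched. Histone genes were named as a whole; from other lists, the called members with the smallest p in each comparison, up to 3, and any chaperone or regulator; and the 8 genes most like the core genes in pattern. The members, lists and tests were chosen with earlier results of these data known. Intervals of depth cover counting error only, and replicates of a strain differed by more than that.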

Additional observations from a re-analysis of the deposited data

How the results depend on the processing

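Over the 10 histone genes and 6 comparisons, settings other than leaving out a library kept direction and call in 552 cases, with 24 calls gained, 5 lost and 19 changes of sign; leaving out 1 library kept 325, with 8 gained, 14 lost and 13 changes of sign. The 6 histone genes called higher in the snf2 deletion against the wild type were called under every setting and without any single replicate. Causes of the changes below were not tested. Fitting the 6 libraries of a comparison alone called 1 histone gene in the snf5 deletion against the wild type, and over all genes 2475 in place of 1612 (snf2 against wild type), 131 in place of 203 (swp82 against wild type), 225 in place of 726 (snf5 against snf2) and 1314 in place of 2438 (snf5 against swp82). For swp82 against wild type, DESeq2 called 511 genes, total-count scaling 317 and the replicate block, which pairs these libraries, 783, with 1 histone gene. The block added HHO1 in snf5 against wild type and HTA1 and HHO1 in snf5 against snf2, and changed no other histone call. Both of these comparisons missed the cut-off for pairing, so whether numbers pair their libraries is unsettled. Total-count scaling called 8 histone genes in snf5 against swp82.

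Total-count scaling moved the median log2 fold change of all genes to 0.13 in snf2 against wild type, 0.16 in snf5 against swp82 and 0.21 in snf2 against swp82. Higher and lower calls were then 1367 and 549 for snf5 against wild type (862 and 842 otherwise), 1837 and 468 for snf2 against wild type (792 and 820), 49 and 268 for swp82 against wild type (82 and 121), 246 and 544 for snf5 against snf2 (337 and 389), 2282 and 599 for snf5 against swp82 (1189 and 1249) and 2937 and 577 for snf2 against swp82 (1265 and 1268). Upper-quartile scaling gave 1641 and 1001 for the last of these. Under total-count scaling the sign turned for HTB1 (0.011) and HHF1 (0.0047) in snf5 against wild type, HTA1 (0.075) and HHO1 (0.071) in snf2 against wild type, HTB1 (0.050) and HHF1 (0.062) in snf5 against swp82, and HTA1 (0.072) in snf2 against swp82. In swp82 against wild type it turned for HTA2 (-0.066), HTB1 (-0.039), HTB2 (-0.053), HHT1 (-0.047), HHT2 (-0.023), HHF1 (-0.057) and HHF2 (-0.061), and under upper-quartile scaling for HTA2 (-0.026), HTB2 (-0.013), HHT1 (-0.0070), HHF1 (-0.017) and HHF2 (-0.021). Differences of type totals that turned under total-count scaling were H2A in snf5 (7.81 CPM) and, in swp82, H2A (-14.0), H2B (-45.6), H3 (-45.8) and H4 (-59.3).

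Without single replicates, histone calls numbered 2 to 4 in snf5 against wild type, 6 in snf2 against wild type, 0 in swp82 against wild type, 5 to 8 in snf5 against snf2, 3 to 6 in snf5 against swp82 and 6 to 7 in snf2 against swp82. Calls over all genes ranged from 63 to 625 in swp82 against wild type and from 322 to 908 in snf5 against snf2. Log2 fold changes that crossed 0 ranged from -0.0020 to 0.10 for HTB2 in snf5 against wild type, -0.015 to 0.041 for HTZ1 in snf2 against wild type, and, in snf5 against swp82, -0.026 to 0.089 for HTB2 and -0.043 to 0.070 for HHT1. In swp82 against wild type they ranged from -0.038 to 0.063 for HTA2, -0.0089 to 0.089 for HTB1, -0.023 to 0.060 for HTB2, -0.015 to 0.10 for HHT1, -0.023 to 0.10 for HHT2, -0.016 to 0.068 for HHF1 and -0.028 to 0.042 for HHF2. Totals against the wild type ranged from -11.7 to 46.0 scaled CPM for H2B in snf5, -31.7 to 178 for H3 in swp82 and -22.8 to 60.4 for H4 in swp82. First-copy shares in swp82 ranged from -0.735 to 0.961 points for H2B, -1.15 to 0.134 for H3 and -0.453 to 0.450 for H4. The lowest count of a histone gene in a library was 794 reads (HTZ1).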
